A study of Mus musculus with 18 samples.

Results

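Interleukin-2 and the effector cytokines of helper T cells were followed through 10 genes, *Il2*, *Il3*, *Csf2*, *Ifng*, *Il4*, *Il5*, *Il13*, *Il17a*, *Il22* and *Il6*, chosen by name from the 37991 genes counted in each library. All 10 passed the filter on low counts. The 18 libraries are RNA-seq of splenic CD4 T cells, isolated by magnetic enrichment, of Tg4 mice on the H2u background, male and female, 6 to 12 weeks old, whose transgenic T cell receptor recognizes a peptide of myelin basic protein. All 6 groups carried this receptor. N0 cells came from mice given only the vehicle PBS, and T0 cells from mice tolerized with 7 subcutaneous injections of rising doses of the high-affinity 4Y peptide and given PBS at the end. NAg and TAg cells were the same states taken 2 h after a last injection of 80 ug of the peptide (Ag). NPI and TPI cells were cultured for 2 h with 20 ng/ml phorbol ester PMA and 2 uM calcium ionophore A23187 (PI), drugs that act below the receptor. There were 3 replicates in each group. No cultured but untreated cells are among the groups, so that PI and culture cannot be told apart, and Ag and PI differ both in the stimulus and in its setting, an animal or a dish.

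Cytokines are secreted proteins through which helper T cells instruct other cells. A T cell that meets its antigen first makes IL-2, the growth factor of T cells, and resting cells hold almost no cytokine mRNA. Calcium and protein kinase C signals below the receptor act on the transcription factors NFAT, AP-1 and NF-kB, which bind cytokine promoters and enhancers. Helper cells that have matured make sets of effector cytokines, IFN-gamma in Th1 cells, IL-4, IL-5 and IL-13 in Th2 cells and IL-17A and IL-22 in Th17 cells. T cells that meet antigen repeatedly without adjuvant can become anergic, a state known for poor IL-2 production.

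Total counts per library ran from 10758571 to 24119489, and the PI libraries were the deepest. Reads of Y-linked genes were present in all 3 NPI and all 3 TPI libraries, in 2 of T0, 1 of TAg and none of N0 and NAg, so that the sex of the mice moved with the treatment, above all between NPI and the other naive groups. All 7 markers of CD4 T cells were detected in every group, and their summed level moved with the stimulus. Their summed normalized count was 28717 to 29902 in N0, 15031 to 16706 in NAg and 49187 to 54877 in NPI, and 24890 to 30103 in T0, 19496 to 22943 in TAg and 54004 to 56963 in TPI. Of the 7, 6 were lower on Ag in naive cells, beside 33.4% of all genes. After Ag 5 were higher in tolerized than in naive cells, beside 20.9%. Unlike the sum, the single markers went both ways on PI, with 4 higher and 3 lower in each state. Their median log2 fold change on PI was 0.18 in naive and 0.21 in tolerized cells, and 28.6% and 32.0% of all genes were higher. Between the states after PI 2 were higher and 3 lower, beside 18.2% and 19.7%. Markers of other cells that can make the same cytokines were also present. The summed normalized count of 8 neutrophil markers was 57.5 to 159 in N0, 123 to 308 in NAg and 62.8 to 170 in NPI, against 1608 to 2876 in T0, 1991 to 3501 in TAg and 395 to 670 in TPI. Of these 8, 7 were called higher in tolerized cells at rest, 8 after Ag and 6 after PI, beside 8.42%, 20.9% and 18.2% of all genes. In NPI 4 of them (*Ngp*, *Ltf*, *Camp* and *Ly6g*) had 0 reads. For 6 markers of basophils and mast cells, sources of IL-4 and IL-13, the summed count was 55.1 to 95.7 in NAg and 203 to 635 in TAg. Of the 6, 4 were called higher in tolerized cells after Ag, beside 20.9% of all genes, and 0 after PI. For 6 markers of NK cells, a source of IFN-gamma, the summed count was 523 to 1211 in NAg, 670 to 1014 in TAg, 563 to 952 in NPI and 245 to 475 in TPI. Of these 6, 1 was called higher and 0 lower in tolerized cells after Ag, beside 20.9% and 18.5% of all genes. After PI 0 were higher and 0 lower, beside 18.2% and 19.7%. For 2 markers of CD8 T cells the summed count was 83.9 to 180 in NAg, 51.3 to 106 in TAg, 170 to 197 in NPI and 52.5 to 70.4 in TPI. Of these 2, 1 was called lower in tolerized cells after Ag and 2 after PI, beside 18.5% and 19.7% of all genes. The part of these cells in the levels below was not tested.

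The promoters of 4 of the genes, *Il2*, *Il3*, *Ifng* and *Il17a*, are shown first, as examples. Each window is the 250 bases before the transcription start in RefSeq (GRCm38.p6), found once in the genome build of the counts (NCBIM37), at chr3:37024877-37025126 on the minus strand for *Il2*, chr11:54080782-54081031 on the minus strand for *Il3*, chr10:117877852-117878101 on the plus strand for *Ifng* and chr1:20720736-20720985 on the plus strand for *Il17a*. Sequences run 5′ to 3′, and capitals mark matches on either strand to the core of an NFAT site (GGAAA, or TTTCC on the other strand) or to an AP-1 site (TGANTCA).
Il2: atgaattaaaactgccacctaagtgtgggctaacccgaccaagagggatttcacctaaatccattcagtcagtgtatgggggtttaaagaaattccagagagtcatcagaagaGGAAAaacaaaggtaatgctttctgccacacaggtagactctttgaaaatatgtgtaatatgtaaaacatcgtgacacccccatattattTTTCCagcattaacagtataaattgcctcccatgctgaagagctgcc
Il3: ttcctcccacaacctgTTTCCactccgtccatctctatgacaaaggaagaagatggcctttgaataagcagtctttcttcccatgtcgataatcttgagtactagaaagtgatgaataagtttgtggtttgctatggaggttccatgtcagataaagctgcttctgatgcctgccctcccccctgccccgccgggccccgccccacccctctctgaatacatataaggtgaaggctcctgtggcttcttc
Ifng: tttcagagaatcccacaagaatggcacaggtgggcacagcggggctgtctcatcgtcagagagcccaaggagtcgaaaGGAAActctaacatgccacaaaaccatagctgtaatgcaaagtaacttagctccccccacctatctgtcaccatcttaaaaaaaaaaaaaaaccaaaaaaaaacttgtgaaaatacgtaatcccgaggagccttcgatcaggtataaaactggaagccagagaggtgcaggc
Il17a: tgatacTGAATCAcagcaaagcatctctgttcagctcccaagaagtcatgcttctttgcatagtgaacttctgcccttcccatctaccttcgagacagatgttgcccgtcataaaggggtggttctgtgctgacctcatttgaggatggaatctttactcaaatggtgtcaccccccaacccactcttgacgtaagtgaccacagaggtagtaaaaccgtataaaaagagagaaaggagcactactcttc
The *Il2* window held 2 NFAT cores, at -137 and -47 from the start, and those of *Il3* and *Ifng* held 1 each, at -234 and -172. The *Il17a* window held no NFAT core and 1 AP-1 site, at -244. Letters of this kind are common, since 55.6% of 32851 promoter windows held an NFAT core and 6.75% an AP-1 site. The window of *Il13* held 4 cores and 1 of 2 windows of *Il4* held 5, and 1.59% of all windows held 4 or more. A match in these windows is a description of the letters and not a mapped binding site.

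*Il2*, on chromosome 3 (NCBIM37, 37019445 to 37024881, minus strand), encodes the growth factor. Its normalized counts, which are reads scaled to a common library size, were 10.9, 7.31 and 6.94 in the N0 replicates, 5024, 5268 and 3063 in NAg and 3878, 4870 and 4015 in NPI. In tolerized cells they were 1.77, 7.07 and 4.80 in T0, 844, 517 and 788 in TAg and 6227, 8577 and 10172 in TPI. The gene was almost silent at rest in both states, TAg lay below NAg in every replicate, and TPI lay above NPI in every replicate. *Il2* rose on Ag by 9.03 ± 0.69 (log2 fold change ± SE of the edgeR model, n = 3 per group; adjusted p = 1.44e-10, edgeR quasi-likelihood test with Benjamini-Hochberg adjustment over 17240 genes, as for every adjusted p below) in naive and by 7.27 ± 0.88 (adjusted p = 1.04e-08) in tolerized cells. After Ag it was lower in tolerized than in naive cells by a log2 fold change of −2.63 ± 0.24 (adjusted p = 2.95e-06), and after PI it was higher by 0.97 ± 0.23 (adjusted p = 0.00440). In bulk RNA, fewer producing cells and less RNA per cell cannot be told apart, here and for each gene below. NPI and NAg levels of *Il2* did not differ beyond their spread (−0.07 ± 0.23, adjusted p = 0.819), whereas in tolerized cells PI gave 3.54 ± 0.24 (adjusted p = 2.89e-08) more than Ag.

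*Il3* and *Csf2* encode IL-3 and GM-CSF, growth factors of myeloid cells that activated T cells secrete. They are neighbours on chromosome 11, on the same strand with 15635 bases between them. *Il3* had 0 reads in all 6 resting libraries, its normalized counts were 457, 304 and 265 in NAg and 32.2, 60.5 and 37.3 in NPI. In tolerized cells they were 7.71, 1.19 and 1.02 in TAg and 28.3, 19.8 and 28.3 in TPI. The highest TAg library lay far below the lowest NAg library, and the Ag-treated naive cells stood above every other group. Against the limit of 3 reads over the resting group, *Il3* was at least 337-fold higher in NAg and at least 3.64-fold higher in TAg. Such a bound falls by construction when a resting library is left out, here to 223 without N0 replicate 1. The 3 TAg libraries held 9 reads in all and the 3 NAg libraries 881, and the log2 fold change between them was −6.64 ± 0.65 (adjusted p = 2.53e-08). Of those 9 reads 7 were in TAg replicate 1. Without that library TAg held 2 reads, below the limit, so that no fold over rest can be given, the difference from NAg was −8.13, and the rise of *Il3* on Ag in tolerized cells lost its call (adjusted p = 0.105).

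*Csf2* followed another order. Its normalized counts were 0.991, 0 and 0.992 in N0, 81.5, 29.4 and 24.2 in NAg and 217, 298 and 223 in NPI. They were 0, 0.883 and 0.959 in T0, 8.81, 1.19 and 12.3 in TAg and 234, 155 and 278 in TPI. PI gave the higher level in both states, and NPI and TPI overlapped. The 115 reads in NAg against 2 in N0 make a ratio of 65.9 after scaling (95% interval from counting alone 17.8 to 551), or 39.7 without NAg replicate 1. After Ag *Csf2* was lower in tolerized cells, with a log2 fold change of −2.52 ± 0.64 (adjusted p = 0.00288), or −1.78 without NAg replicate 1, its highest NAg library. The rise on Ag in tolerized cells (3.42 ± 1.79, adjusted p = 0.0280) rested on 21 against 2 reads and lost its call without any 1 of the T0 replicates, TAg replicate 1 or TAg replicate 3 (adjusted p from 0.0622 to 0.129), and without the filter on low counts (0.0588). *Csf2* shares 96 exonic bases with a gene model on the opposite strand, *Gm12223*, and whether strand was used in counting is not stated.

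*Ifng*, on chromosome 10, encodes IFN-gamma, the Th1 cytokine that activates macrophages. It was the member with the most reads at rest. Its normalized counts were 77.3, 28.2 and 39.7 in N0, 1584, 750 and 462 in NAg and 3945, 6033 and 4872 in NPI. They were 119, 128 and 112 in T0, 937, 680 and 1096 in TAg and 11261, 6461 and 7066 in TPI. Every T0 library lay above every N0 library and every TPI library above every NPI library, while TAg lay within the range of NAg. None of these differences between cell states passed the test, with log2 fold changes of 1.30 ± 0.63 at rest (adjusted p = 0.165), −0.04 ± 0.39 after Ag (adjusted p = 0.961) and 0.74 ± 0.37 after PI (adjusted p = 0.142). The difference at rest passed in DESeq2 (adjusted p = 0.0214) and in a fit of the resting groups alone (0.0243), and the difference after PI passed without NAg replicate 1 (adjusted p = 0.0477). *Ifng* rose on Ag by 4.25 ± 0.58 in naive (adjusted p = 8.82e-06), or 3.63 without NAg replicate 1, and by 2.91 ± 0.46 in tolerized cells (adjusted p = 9.63e-05). The difference between these rises was −1.34 ± 0.74 (adjusted p = 0.239), a contrast added after the values were seen.

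**Figure D1:**
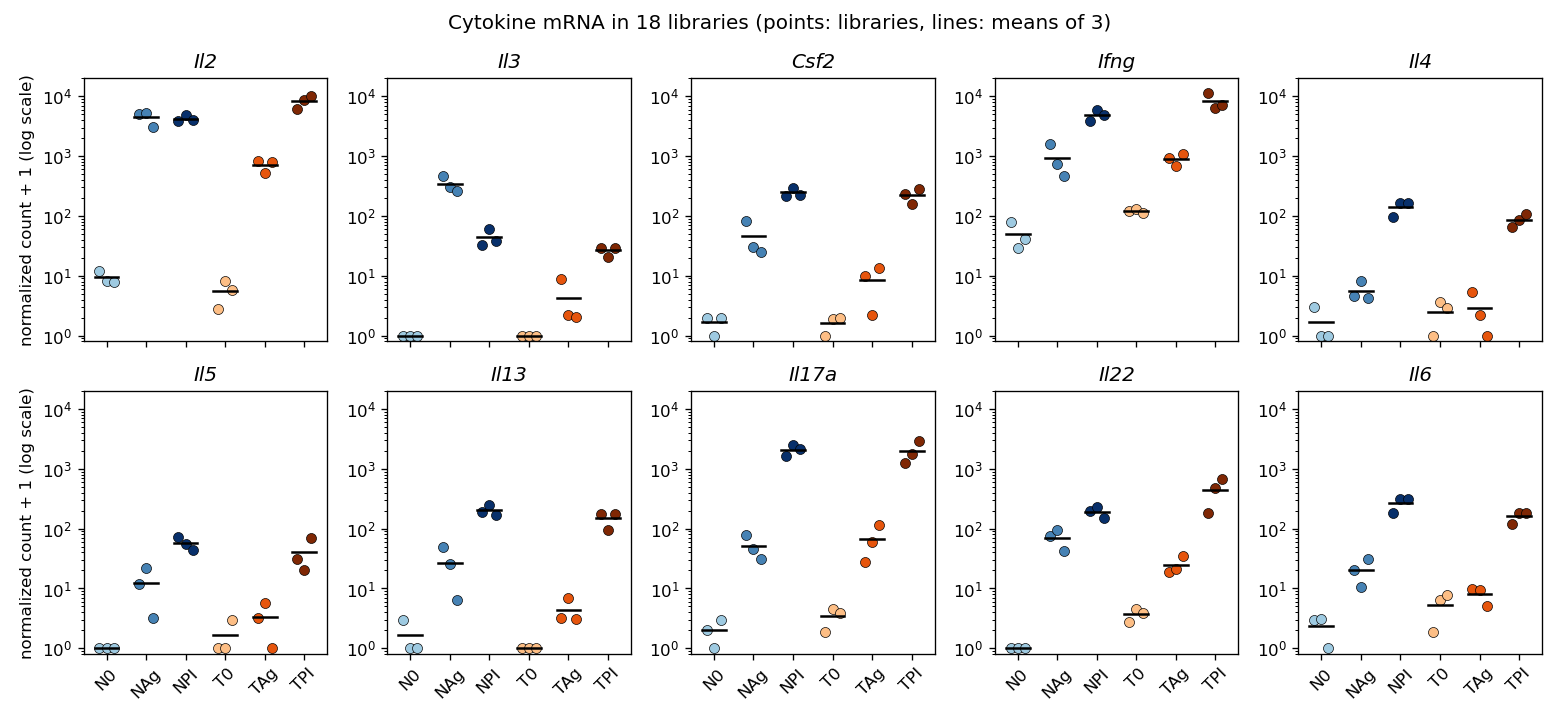
Normalized counts of each of the 10 genes (log axis, 1 added to every value) in the 6 groups, with 1 point per library, 3 per group, and a bar at the group mean. *Il2* and *Il3* fell in TAg against NAg by −2.63 and −6.64 on the log2 scale, *Ifng* differed by −0.04, and no gene but *Ifng* exceeded 10.9 normalized counts in a resting library.

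The Th2 cytokines *Il4*, *Il5* and *Il13*, which act on B cells, eosinophils and epithelium, lie within a cluster on chromosome 11. They were low after Ag and higher after PI. *Il4* had normalized counts of 3.60, 7.05 and 3.30 in NAg, 4.40, 1.19 and 0 in TAg, 96.7, 165 and 161 in NPI and 64.6, 85.6 and 107 in TPI. The 12 *Il4* reads in NAg against 2 in N0, both in N0 replicate 1, passed the test (log2 fold change 2.58 ± 1.32, adjusted p = 0.0329) but not without N0 replicate 2, N0 replicate 3 or NAg replicate 2 (adjusted p = 0.114, 0.120 and 0.126), and TAg and T0 held 5 reads each. *Il4* shares 179 exonic bases with *Kif3a* on the opposite strand.

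*Il5* had normalized counts of 10.8, 21.1 and 2.20 in NAg, 2.20, 4.77 and 0 in TAg, 71.8, 53.9 and 42.4 in NPI and 30.7, 19.8 and 69.0 in TPI. *Il13* had 47.9, 24.7 and 5.50 in NAg, 2.20, 5.96 and 2.05 in TAg, 192, 251 and 166 in NPI and 177, 95.5 and 174 in TPI. On Ag in naive cells *Il5* rose at least 11.1-fold against the limit of 3 reads, or 6.26-fold without NAg replicate 2, which held 18 of its 29 reads, and 7.33-fold without N0 replicate 1 or 3. The 66 *Il13* reads in NAg against 2 in N0 make a ratio of 37.8 (95% counting interval 10.1 to 319), or 22.0 without NAg replicate 1, 25.0 without N0 replicate 3 and at least 16.7 without N0 replicate 1. The 2 states overlapped in both genes and after both stimuli. *Il13* was nevertheless lower in TAg than in NAg by the test (−2.91 ± 0.99, adjusted p = 0.0149). That call was lost without NAg replicate 1 (−2.12, adjusted p = 0.0543), TAg replicate 1 (0.0538) or TAg replicate 3 (0.0637), and with a term for Y-linked reads (0.0580), and the difference was −3.52 without TAg replicate 2. *Il5* (−2.28 ± 1.14, adjusted p = 0.0903) and *Il4* (−1.28 ± 0.94, adjusted p = 0.263) were not called. With 1 library left out *Il5* ran from −3.26 (TAg replicate 2) to −1.47 (NAg replicate 2) and *Il4* from −2.82 (TAg replicate 1) to −0.67 (TAg replicate 3). *Il5* passed in DESeq2 (0.0189) and without NAg replicate 3 (0.0253) or TPI replicate 3 (0.0446). In resting cells the 3 genes had between 0 and 5 reads per gene and group. *Il5* shares 417 exonic bases with *Gm12214* on the opposite strand.

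*Il17a* encodes IL-17A, which draws neutrophils to tissues, and *Il22* encodes IL-22, which acts on epithelium. *Il17a* had normalized counts of 0.991, 0 and 1.98 in N0, 77.9, 44.6 and 29.7 in NAg and 1631, 2526 and 2120 in NPI. In tolerized cells it had 0.885, 3.53 and 2.88 in T0, 26.4, 59.6 and 113 in TAg and 1278, 1776 and 2930 in TPI. The states overlapped throughout, with log2 fold changes of 0.42 ± 0.59 after Ag (adjusted p = 0.618) and −0.07 ± 0.33 after PI (adjusted p = 0.903). It rose on Ag by 5.48 ± 2.52 in naive (adjusted p = 0.00242) and by 4.72 ± 1.58 in tolerized cells (adjusted p = 0.00115), the latter 4.07 without TAg replicate 3. The former rested on 130 against 3 reads, a ratio of 49.7 (95% counting interval 16.6 to 244), or 98.6 without N0 replicate 3. In naive cells PI gave more *Il17a* than Ag (5.38 ± 0.49, adjusted p = 1.87e-07), or 4.06 with a term for Y-linked reads.

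*Il22* had 0 reads in N0 and 2, 4 and 3 reads in T0. Its normalized counts were 75.5, 92.8 and 41.8 in NAg, 17.6, 20.3 and 33.8 in TAg, 197, 230 and 148 in NPI and 179, 480 and 687 in TPI. Against the limit of 3 reads over N0 it was at least 68.8-fold higher in NAg, or 45.5-fold without N0 replicate 1 or 3. After Ag every tolerized library lay below every naive one, yet the difference did not pass the test (−1.53 ± 0.61, adjusted p = 0.0635). It passed in DESeq2 (adjusted p = 0.00878), in a fit of the groups compared alone (0.00492) and without TPI replicate 1 (0.00267) or TPI replicate 3 (0.0216). After PI *Il22* was higher in tolerized cells (1.24 ± 0.41, adjusted p = 0.0374), although TPI replicate 1 lay among the NPI libraries. This call was lost without any 1 of NPI replicates 1, 2 and 3, T0 replicate 2, TAg replicate 2 or TPI replicates 2 and 3 (adjusted p from 0.0506 to 0.150), in the fit of both PI groups alone (0.170) and without the filter on low counts (0.0585). The rise on Ag in tolerized cells (3.09 ± 1.23, adjusted p = 0.0199) was lost without any 1 T0 replicate or TAg replicate 3 (adjusted p from 0.0502 to 0.0808). *Il23r* and *Il1r1*, receptor genes of Th17 cells and of innate cells that make IL-17A and IL-22, were listed as markers of such cells. *Il23r* averaged 324 ± 56.2 normalized counts in NPI and 253 ± 117 in TPI (SD, n = 3), and *Il1r1* 220 ± 40.0 and 364 ± 133. Neither was called between the states after PI (adjusted p = 0.502 and 0.117), and the part of such cells in the levels of *Il17a* and *Il22* was not tested. A near-identical copy of *Il22*, *Iltifb*, held 0 to 9 reads per group, and how reads that match both were counted is not stated.

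*Il6* encodes IL-6, an inflammatory cytokine made mainly by myeloid and stromal cells. Its normalized counts were 1.98, 2.09 and 0 in N0, 19.2, 9.40 and 29.7 in NAg and 181, 319 and 316 in NPI. They were 0.885, 5.30 and 6.71 in T0, 8.81, 8.35 and 4.10 in TAg and 120, 181 and 179 in TPI. *Il6* rose on Ag in naive cells by 3.75 ± 1.03 (adjusted p = 0.000223), or 3.14 without N0 replicate 3. It was lower in tolerized cells after Ag (−1.47 ± 0.58, adjusted p = 0.0414) and after PI (−0.77 ± 0.28, adjusted p = 0.0361). The groups overlapped by a narrow margin after PI, where TPI replicate 2 and NPI replicate 1 were nearly equal. The call after Ag was lost without any 1 of N0 replicates 1 and 2, NAg replicates 1 and 3, T0 replicate 2 or the 3 TAg replicates (adjusted p from 0.0543 to 0.215), with a term for Y-linked reads (0.115) and without the filter on low counts (0.0842). The call after PI was lost without any 1 of NAg replicate 1, NPI replicates 2 and 3, T0 replicate 2, TAg replicate 1 or the 3 TPI replicates (adjusted p from 0.0513 to 0.161), in the fit of both PI groups alone (0.102) and without the filter on low counts (0.0731). The summed normalized count of 6 macrophage markers, cells that make IL-6, was 527 to 1347 in NAg, 1185 to 1761 in TAg, 480 to 724 in NPI and 813 to 984 in TPI. The single markers went both ways after Ag, with 2 higher and 3 lower in tolerized cells (median log2 fold change −0.58). Of all genes 20.9% were higher and 18.5% lower there. After PI 2 markers were higher and 0 lower (median 0.64), beside 18.2% and 19.7% of all genes. The part of these cells in the levels of *Il6* was not tested.

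Levels of different genes can be set side by side only per length, as normalized counts per kb of exon. On this scale the order in NAg was *Il2* (3891 ± 1057, mean ± SD, n = 3), *Ifng* (772 ± 483) and *Il3* (544 ± 161), then *Il22* (63.4 ± 23.5), *Csf2* (56.3 ± 39.6), *Il17a* (43.3 ± 21.1), *Il13* (21.6), *Il6* (17.9), *Il5* (7.40) and *Il4* (3.79). *Il2* stood clear of *Ifng*, *Ifng* overlapped *Il3*, and from *Il22* downwards each gene overlapped the next. In TAg the first 2 places were held by *Ifng* (749 ± 174) and *Il2* (626 ± 153), which overlapped, followed at a distance by *Il17a* (56.6 ± 37.2), while *Il3* had fallen to the seventh place (5.26 ± 6.06). Under PI the order began with *Ifng* (4101 ± 866), *Il2* (3719 ± 470) and *Il17a* (1787 ± 383) in NPI and with *Il2* (7277 ± 1735), *Ifng* (6846 ± 2166) and *Il17a* (1703 ± 724) in TPI. In both PI groups *Ifng* and *Il2* overlapped and *Il17a* lay below both.

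Counted over the 10 genes, Ag raised all 10 in naive cells, where 32.1% of all tested genes were called higher, and 6 in tolerized cells, where 29.9% were. The 6 were *Il2*, *Il3*, *Csf2*, *Ifng*, *Il17a* and *Il22*. The median log2 fold change of the 10 was 5.65 in naive and 3.25 in tolerized cells, beside 0 and −0.05 over all tested genes. The difference between the rises of both states was tested directly in edgeR alone, as a contrast added after the values were seen. It was called for 0 of the 10, where 14.6% of all genes were called higher and 7.09% lower, and 1 of the 10, *Il6*, had an unadjusted p under 0.05. It was −1.76 ± 1.12 (adjusted p = 0.357) for *Il2*, −2.40 ± 2.49 (adjusted p = 0.586) for *Csf2* and −3.04 ± 1.26 (adjusted p = 0.0637) for *Il6*. For *Il3*, with 0 reads at rest in both states, this contrast has no fitted size. *Il5* and *Il22* had 0 reads in N0 and *Il13* had 0 in T0, so that no SE can be given for them. Few resting reads widen the contrast, and the SE of *Il2* was 1.12 here against 0.24 for TAg against NAg. The lack of calls therefore does not show that the rises were equal. Within tolerized cells *Il13* had 9 reads in TAg and 0 in T0 (adjusted p = 0.0967), and its rise passed in DESeq2 (0.00450), in a fit of the groups compared alone (0.0124) and without NAg replicate 1 (0.0415) or NAg replicate 3 (0.0178). *Il4* (0.26 ± 1.11, adjusted p = 0.848), *Il5* (1.68 ± 1.97, adjusted p = 0.408) and *Il6* (0.70 ± 0.72, adjusted p = 0.413) also missed the threshold in tolerized cells.

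PI raised all 10 genes in naive cells (28.6% of all tested genes were called higher) and all 10 in tolerized cells (32.0%). The largest ratios of summed reads to resting cells, among genes with reads at rest, were 2070 for *Il17a* in naive cells (95% counting interval 708 to 10041, against 3 reads, and 4106 without N0 replicate 3) and 1846 for *Il2* in tolerized cells (1119 to 3298). Fitted log2 fold changes on PI were recomputed with 1 library left out for genes with over 3 resting reads. They moved by over 1.5 times on the linear scale for *Il6* in naive cells (from 7.53 to 6.94 without N0 replicate 3) and for *Il4* in tolerized cells (from 5.71 to 5.12 without T0 replicate 1 and 6.34 without T0 replicate 2).

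Between resting tolerized and naive cells none of the 10 genes was called in either direction by edgeR, where 8.42% of all genes were called higher and 12% lower. At an unadjusted p under 0.05 edgeR also called 0 of the 10 genes there. DESeq2 called 2, *Ifng* (adjusted p = 0.0214) and *Il22* (0.0242). After Ag 5 were lower in tolerized cells, *Il2*, *Il3*, *Csf2*, *Il13* and *Il6*, where 18.5% of all genes were called lower, and none was higher, where 20.9% were. The median of the 10 was −1.90, beside 0.01 over all tested genes. After PI *Il2* and *Il22* were higher (18.2% of all genes) and *Il6* was lower (19.7%), with a median of −0.28 beside −0.04. *Il3* (−0.73 ± 0.35, adjusted p = 0.114) and *Il4* (−0.72 ± 0.30, adjusted p = 0.0642) were not called there. *Il3* passed in a fit of both PI groups alone (0.0330), and *Il4* without NPI replicate 1 (0.0331) or TAg replicate 3 (0.0403).

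**Figure D2:**
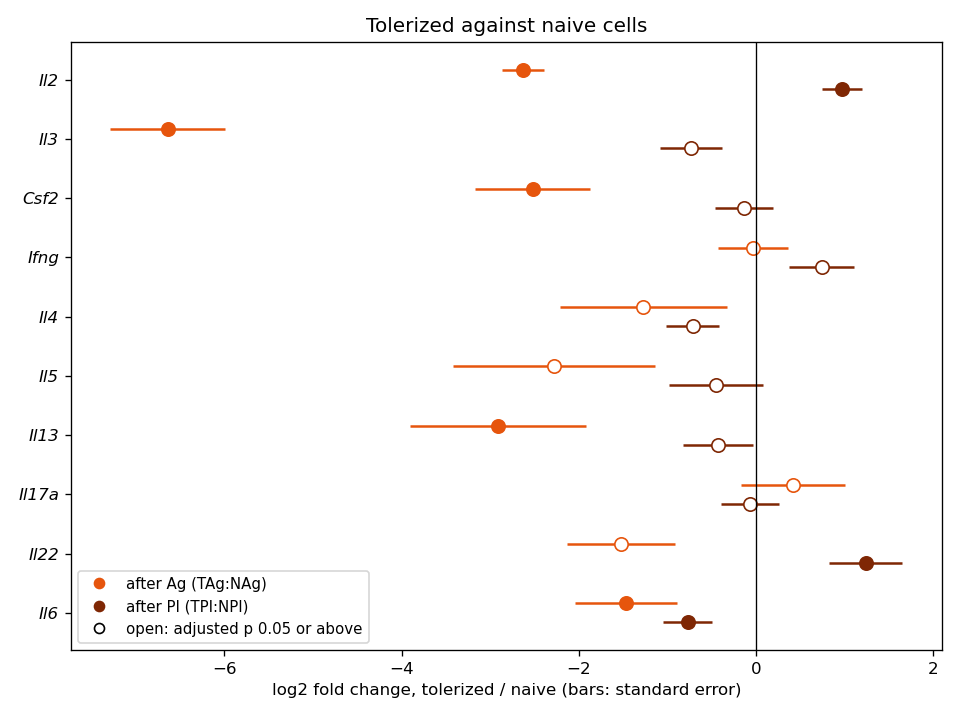
Log2 fold changes (x axis) of tolerized against naive cells for the 10 genes (rows), with 1 point after Ag and 1 after PI, bars of 1 SE, and open points where the adjusted p was 0.05 or above. *Il2* sat at −2.63 and 0.97 and *Il3* at −6.64 and −0.73, while *Ifng* (−0.04 and 0.74) and *Il17a* (0.42 and −0.07) had open points after both.

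The change of the gap between the states from Ag to PI was tested directly, as the tolerized to naive log2 fold change after PI minus that after Ag. It was positive and called for 4 of the 10 genes, where 17.2% of all tested genes were. These were *Il3* (5.90 ± 0.73, adjusted p = 1.66e-06), *Il2* (3.60 ± 0.33, adjusted p = 1.92e-06), *Il22* (2.76 ± 0.74, adjusted p = 0.0106) and *Csf2* (2.39 ± 0.72, adjusted p = 0.0115). The value for *Il3* was 7.41 without TAg replicate 1 and that for *Csf2* 1.66 without NAg replicate 1. *Il13* (2.48 ± 1.07, adjusted p = 0.0595) missed the threshold but passed in DESeq2 (0.0332), at a minimum average count of 10 (0.0472) and without NAg replicate 3 (0.00196) or TPI replicate 2 (0.0356). For *Ifng* the change was 0.78 ± 0.54 (adjusted p = 0.301) and for *Il17a* −0.48 ± 0.67 (adjusted p = 0.629).

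Within naive cells PI gave higher levels than Ag in 8 of the 10 genes (33.5% of all genes were called higher), a lower level in 1, *Il3* (31.0% were called lower), and no called difference in *Il2*. *Il3* was lower after PI (−2.99 ± 0.30, adjusted p = 3.37e-07), while *Csf2*, its neighbour, was higher by 2.46 ± 0.39 (adjusted p = 4.09e-05). Since no NAg and all NPI libraries held Y-linked reads, a term for these reads was fitted. Only T0 (2 of 3 libraries with such reads) and TAg (1 of 3) were mixed, so these tolerized groups alone set its size. They held 0 and 9 reads of *Il3* and 2 and 21 of *Csf2*. Naive contrasts with the term are thus carried over from tolerized cells, and the part of sex in them was not tested. With the term the contrast of *Il3* was −1.14 (adjusted p = 0.764), that of *Csf2* 1.44 (0.357), that of *Il13* 3.85 (0.143) and that of *Il22* 0.74 (0.613), so that these 4 lost their calls. The other 5 kept theirs at other sizes, *Il5* at 6.65 (from 2.30), *Il4* at 6.29 (from 4.89), *Il6* at 4.86 (from 3.79), *Il17a* at 4.06 (from 5.38) and *Ifng* at 2.07 (from 2.41). Leaving out NAg replicate 1 moved *Csf2* to 3.19, *Ifng* from 2.41 to 3.03 and *Il13* from 2.97 to 3.75, and leaving out NAg replicate 2 moved *Il5* from 2.30 to 3.11. The call of *Il22* (1.45 ± 0.47, adjusted p = 0.0186) was lost without NAg replicate 3 (0.0781) or NPI replicate 2 (0.0535).

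Within tolerized cells PI gave more than Ag for all 10 genes (31.5% of all genes were called higher), from 2.92 ± 0.67 for *Il3* to 5.45 for *Il4* and *Il13* on the log2 scale. The low counts in TAg made single libraries matter. *Il3* was 4.42 and *Il4* 7.01 without TAg replicate 1, *Il5* 5.10 (from 4.12) and *Il13* 6.06 without TAg replicate 2, and *Il4* 4.85, *Il5* 3.52 and *Il17a* 5.55 (from 4.89) without TAg replicate 3. *Il5* was 3.45 without TPI replicate 3. Every gene remained called in these fits.

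**Figure D3:**
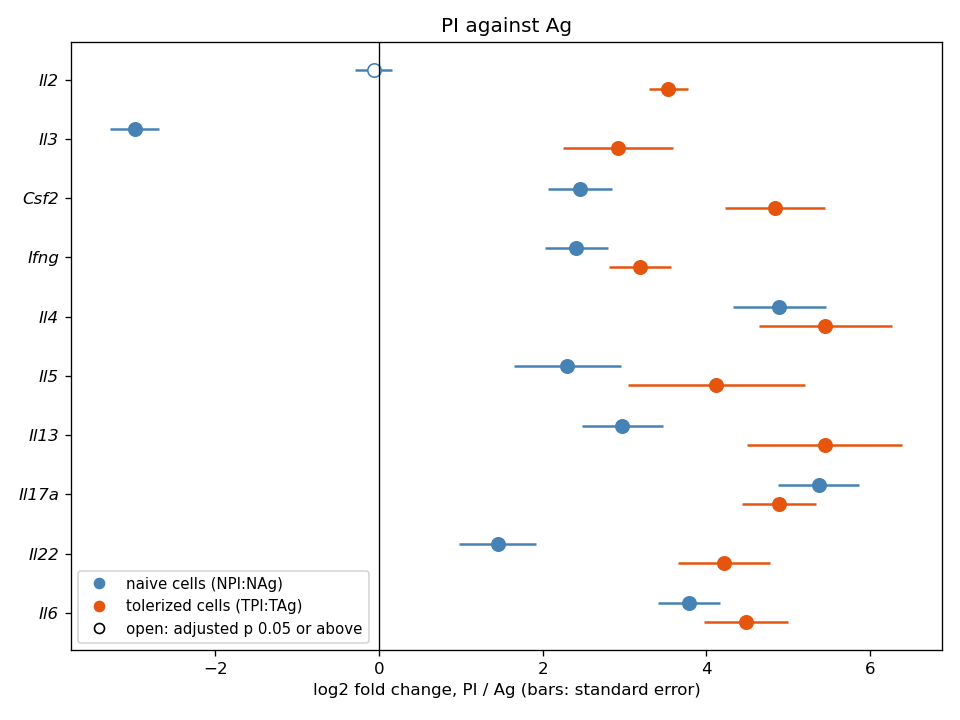
Log2 fold changes (x axis) of PI against Ag for the 10 genes (rows), with 1 point in naive and 1 in tolerized cells, bars of 1 SE, and open points where the adjusted p was 0.05 or above. *Il3* sat at −2.99 in naive and 2.92 in tolerized cells and *Il2* at −0.07 and 3.54, and the other genes lay above 0 in both.

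The composition of the cytokine mRNA was described as each gene's share of the reads of all 10 genes in a library. *Il2* made up 68.1, 80.4 and 78.0% of them in the NAg replicates, 45.4, 39.8 and 38.4% in TAg, 37.1, 32.9 and 33.2% in NPI and 31.8, 48.1 and 46.9% in TPI. *Ifng* made up 21.5, 11.4 and 11.8% in NAg and 50.4, 52.3 and 53.5% in TAg, 37.8, 40.7 and 40.3% in NPI and 57.5, 36.2 and 32.6% in TPI. After Ag *Il2* was the larger share in every naive library and *Ifng* in every tolerized one. The mean *Il2* share after Ag was lower in tolerized cells by −34.3 percentage points (41.2 ± 3.70 against 75.5 ± 6.55%, SD, n = 3), with no overlap, and the exact two-sided permutation test gave p = 0.1, the smallest that 3 against 3 libraries allow. After PI it was 7.83 points higher in tolerized cells (exact permutation p = 0.4). With *Ifng* left out of the sum the difference after Ag was −2.77 points (exact permutation p = 0.4). *Il17a* made up 0.83% of the reads on average in NAg and 3.84% in TAg, against 16.7% in NPI and 9.99% in TPI.

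**Figure D4:**
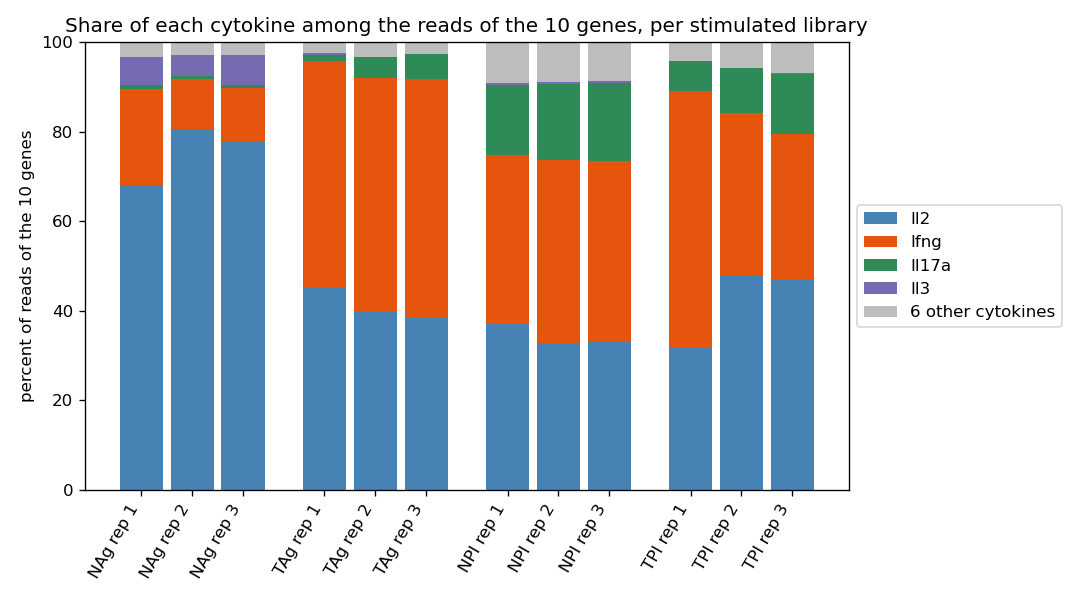
Shares of *Il2*, *Ifng*, *Il17a*, *Il3* and the 6 other genes in the summed reads of all 10 (percent, stacked from 0 to 100), with 1 bar for each library of the 4 stimulated groups. The *Il2* share averaged 75.5% in NAg, 41.2% in TAg, 34.4% in NPI and 42.2% in TPI.

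Neighbouring genes did not keep a fixed proportion. There were 5.60, 10.4 and 11.0 reads of *Il3* per read of *Csf2* in the NAg libraries, 0.148, 0.203 and 0.167 in NPI and 0.121, 0.128 and 0.102 in TPI. In TAg there were 9 reads of *Il3* and 21 of *Csf2* in all. *Il17a* and *Il17f*, which encode related cytokines and are neighbours on chromosome 1, gave 0.305, 0.373 and 0.351 reads of *Il17a* per read of *Il17f* in NAg, 1.0, 1.85 and 1.93 in TAg, 2.43, 2.62 and 2.54 in NPI and 4.12, 2.64 and 3.05 in TPI. *Il17f* outnumbered *Il17a* in every NAg library and in no other stimulated library. Both pairs were chosen after the values were seen, and these ratios within a library do not depend on its scaling.

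**Figure D5:**
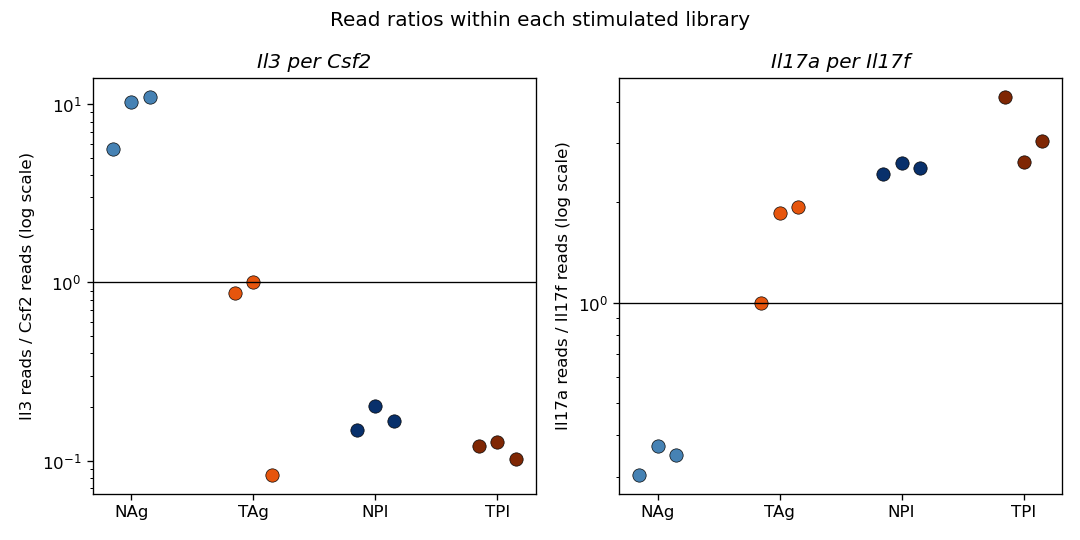
Reads of *Il3* per read of *Csf2* and of *Il17a* per read of *Il17f* (log axis) in each library of the 4 stimulated groups, with 1 point per library. The *Il3* to *Csf2* ratio of NAg was 5.60 to 11.0, against 0.102 to 0.203 in the PI libraries, and the *Il17a* to *Il17f* ratio was lowest in NAg (0.305 to 0.373).

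The genes whose levels were most like those of 3 members across the 18 libraries were listed by Pearson's correlation of log2 CPM (reads scaled to library size), as a description, since the libraries share groups and stimulation moves many genes at once. For *Il2* they were *Nr4a3* (r = 0.997), *Uap1* (0.994), *Kdm6b* (0.991), *Mapk6* (0.990) and *Rel* (0.990). For *Il3* they were *Ahcyl2* (0.972), *2310016C08Rik* (0.970), *Btbd9* (0.966), *Nptn* (0.964) and *Bcl2l11* (0.959). For *Ifng* they were *Ccr8* (0.993), *Rnf19b* (0.992), *Atf3* (0.986), *Ier3* (0.983) and *Plagl1* (0.983).

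Other cytokine genes of T cells were taken from a list of 22, of which 20 were tested. After Ag 6 were higher and 7 lower in tolerized cells, with a median log2 fold change of −0.31, beside 20.9% and 18.5% of all genes and a median of 0.01. *Il10*, the anti-inflammatory cytokine of regulatory T cells, was higher by 5.39 ± 0.31 (adjusted p = 2.16e-08) and *Il21*, a helper cytokine for B cells, by 3.01 ± 0.29 (adjusted p = 5.10e-06). *Cd40lg*, the ligand through which T cells license B cells and dendritic cells, was lower (−4.82 ± 0.15, adjusted p = 2.65e-12). After PI 7 were higher and 2 lower (median 0.35), beside 18.2% and 19.7% of all genes and a median of −0.04, with *Il10* higher by 4.95 ± 0.23 (adjusted p = 1.04e-08) and *Il21* by 4.03 ± 0.27 (adjusted p = 2.80e-07). *Il10* and *Il21* were thus higher in tolerized cells after both stimuli, whereas *Il2* was lower after Ag and higher after PI.

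Of 20 genes for receptor chains of these cytokines 17 were tested. Ag raised 8 and lowered 5 in naive cells, where 32.1% of all genes were called higher and 33.4% lower. Among those raised were the high-affinity IL-2 receptor chain *Il2ra* (6.05 ± 0.22, adjusted p = 4.02e-11) and the shared chain *Il2rb* (2.49 ± 0.26, adjusted p = 1.92e-06). After Ag 5 were higher and 2 lower in tolerized cells (median −0.10), beside 20.9% and 18.5% of all genes, and the IL-3 receptor chain *Il3ra* was higher by 0.98 ± 0.21 (adjusted p = 0.000609) and the beta chain shared by the IL-3, IL-5 and GM-CSF receptors, *Csf2rb*, by 1.14 ± 0.34 (adjusted p = 0.0171). After PI 8 were higher and 2 lower (median 0.26), beside 18.2% and 19.7% of all genes, with *Il2rb* higher by 1.57 ± 0.25 (adjusted p = 0.000321) and *Il2ra* by 1.42 ± 0.21 (adjusted p = 0.000112), and *Ifngr2*, a chain of the IFN-gamma receptor, lower (−1.74 ± 0.12, adjusted p = 2.94e-09). The receptor genes of IL-3 and GM-CSF are also used by myeloid cells and basophils, and that part was not tested. In tolerized cells after Ag 4 of 6 basophil and mast cell markers and 8 of 8 neutrophil markers were higher. Of 6 macrophage or monocyte markers 2 were higher and 3 lower there (median −0.58). After PI 0 of the 6 basophil and mast cell markers, 6 neutrophil markers and 2 macrophage or monocyte markers were higher.

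Of 20 regulators of helper lineages 10 were higher and 2 lower in tolerized cells at rest (median 0.23), beside 8.42% and 12% of all genes and a median of −0.08. They included *Tbx21* (1.78 ± 0.26, adjusted p = 0.000331), the Th1 factor, *Ahr* (2.50 ± 0.23, adjusted p = 7.23e-06), which promotes IL-22, and *Maf* (2.66 ± 0.32, adjusted p = 0.000128), a factor that drives *Il10*. *Gata3*, the Th2 factor, named for its role after its values were seen, differed by −0.02 ± 0.10 (adjusted p = 0.926). After Ag 6 were higher and 9 lower (median −0.10), beside 20.9% and 18.5% of all genes and a median of 0.01, with *Maf* at 4.07 ± 0.31 (adjusted p = 1.10e-06) and *Ahr* at 1.72 ± 0.19 (adjusted p = 7.55e-06). After PI 15 were higher and 3 lower (median 0.79), beside 18.2% and 19.7% of all genes and a median of −0.04, with *Tbx21* at 1.92 ± 0.20 (adjusted p = 6.24e-06). Of 24 transcription factors known to be induced by receptor signals, 4 were higher and 10 lower in tolerized cells after Ag (median −0.33), beside 20.9% and 18.5% of all genes and a median of 0.01, with *Nr4a3* at −2.22 ± 0.14 (adjusted p = 2.33e-09) and *Fosl2*, an AP-1 subunit, at −1.80 ± 0.09 (adjusted p = 3.93e-13). After PI 15 were higher and 1 lower (median 0.74), beside 18.2% and 19.7% of all genes, with *Nr4a3* at 1.20 ± 0.14 (adjusted p = 2.27e-06) and *Fosl2* at 1.95 ± 0.09 (adjusted p = 2.59e-13).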

How the data were processed

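RNA-seq was carried out on 18 libraries, 3 replicates in each of 6 groups. Per the submitters' processing notes and the study's methods, the authors aligned paired-end reads of rRNA-depleted RNA to mm9 with TopHat2 2.1.1, counted them with HTSeq 0.9.1 and used DESeq2 1.18 and edgeR 3.24. The deposited values are raw counts per Ensembl gene, without normalization. Handling of strand and of overlapping genes is not given in the sources used here.

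The 17240 genes whose normalized counts averaged 3 or more in any group were tested in R 4.3.3 with edgeR 4.0.16 (TMM scaling, robust quasi-likelihood test, 6 group means over all libraries), and called at a Benjamini-Hochberg adjusted p under 0.05. A fold against a group without reads is a bound against 3 counts over the group. Intervals (95%) cover counting error only. Labels name biological replicates only by number. The code was tested on simulated counts. Alternatives were DESeq2 1.42.0 and its size factors, other filters, the limits of the study (fold change of at least 2, average above 50), the groups compared alone, the replicate number as a block, a term for libraries with Y-linked reads, and each library left out. Promoter windows came from RefSeq (GRCm38.p6). The 10 genes and all gene lists were chosen with earlier results of these data known. Of each list at most 4 genes are named per comparison, among called genes with the largest log2 fold changes, and others are marked. 1 gene of the lists is not reported here by name.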

Additional observations from a re-analysis of the deposited data

Results flagged for a closer look

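Of the 10 cytokine genes 4 had a difference between tolerized and naive cells that changed between Ag and PI by a direct test of that change (edgeR interaction contrast, Benjamini-Hochberg adjusted p over 17240 genes). The values are the tolerized to naive log2 fold change after PI minus that after Ag. *Il2* changed by 3.60 ± 0.33 (SE, adjusted p = 1.92e-06), from −2.63 after Ag to 0.97 after PI, each called. *Il3* changed by 5.90 ± 0.73 (adjusted p = 1.66e-06), from −6.64 to −0.73, the latter not called. *Csf2* changed by 2.39 ± 0.72 (adjusted p = 0.0115), from −2.52 to −0.14, the latter not called. *Il22* changed by 2.76 ± 0.74 (adjusted p = 0.0106), from −1.53, not called, to 1.24. All 4 kept their call under the 7 other settings and in each of 18 fits with 1 library left out, with ranges over the latter of 3.42 to 3.83 for *Il2*, 5.45 to 7.41 for *Il3*, 1.66 to 2.95 for *Csf2* and 2.31 to 3.15 for *Il22*. The direct test is also a comparison of cells in an animal with cells in culture, and that cannot be told apart from the stimulus.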

How the results depend on the processing

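Among the limits are the low counts of *Il3*, *Csf2*, *Il4*, *Il5*, *Il13* and *Il6* after Ag, where some groups of 3 libraries held under 30 reads, 3 replicates per group, and sex and culture, which move with PI. Under the limits of the study (fold change of at least 2 and average above 50) the genes called were 5 on Ag in naive and 3 in tolerized cells, 2 lower between states after Ag, and 1 higher and 0 lower after PI. DESeq2 called 2 higher at rest, and the fit of the groups compared alone called 1 higher at rest and 1 higher after PI. Without the filter on low counts 1 was higher and 0 lower after PI. With the term for Y-linked reads, whose size only the T0 and TAg libraries set, 3 were lower after Ag. For PI against Ag in naive cells 5 were higher and 0 lower with it. Of log2 fold changes, the sign turned for *Il4* on Ag in tolerized cells (−0.20), *Il17a* between states after Ag (−0.20) and in its change from Ag to PI (0.13) with that term, none of them called. The *Il2* share of the cytokine reads after Ag differed by −2.77 points without *Ifng*.

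Same-numbered replicates did not deviate together (correlations from −0.166 to 0.089), so the numbers were not taken as pairs. The replicate block left 1 gene higher after PI (*Il22* lost its call, adjusted p = 0.0627), turned *Ifng* after Ag to 0.049, and changed no other count of called members.

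With each library left out in turn the number lower after Ag was 3 to 7, and after PI it was 0 to 2 lower and 1 to 3 higher. Signs turned, without a call, for *Ifng* (−0.37 to 0.59) and *Il17a* (−0.24 to 0.87) between states after Ag, *Csf2* (−0.33 to 0.060) and *Il17a* (−0.46 to 0.20) after PI, *Il2* for PI against Ag in naive cells (−0.29 to 0.074), *Il4* on Ag in tolerized cells (−1.28 to 0.88), and the change from Ag to PI of *Il4* (−0.044 to 2.12) and *Il17a* (−0.91 to 0.17). The causes were not tested. Over all genes, the limits of the study changed each of the 20 counts of calls by over 1.5 times, for example from 3185 to 353 lower after Ag. At rest 1452 genes were higher and 2067 lower, against 922 and 912 with the term for Y-linked reads, and 962 were lower in the fit of the resting groups alone. Leaving out 1 library gave 952 to 1531 higher (952 without N0 replicate 2) and 1239 to 2588 lower (1239 without T0 replicate 1), and the latter also moved by over 1.5 times without N0 replicate 2. Scaling by DESeq2's size factors changed no call and no sign.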

Other observations

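Genes that lie beside the cytokine genes were described from a list of 18 neighbours, of which 16 were tested. Between tolerized and naive cells 6 were higher and 4 lower after Ag (median log2 fold change 0.24), beside 20.9% and 18.5% of all genes and a median of 0.01. After PI 2 were higher and 9 lower (median −0.37), beside 18.2% and 19.7% of all genes and a median of −0.04. *Acsl6*, an acyl-CoA synthetase gene near *Il3*, had normalized counts of 0.33 ± 0.57 (SD, n = 3) in N0, 49.5 ± 5.14 in NAg and 1.28 ± 0.36 in NPI, and of 3.96 ± 1.91 in T0, 16.4 ± 3.72 in TAg and 3.29 ± 1.60 in TPI. In naive cells *Acsl6* was lower after PI than after Ag (log2 fold change −5.11 ± 0.69, adjusted p = 1.59e-09), as *Il3* was. With a term for Y-linked reads, which all NPI and no NAg libraries held, *Il3* lost that call (−1.14, adjusted p = 0.764). Only the T0 and TAg libraries set the size of that term, and *Acsl6* was not examined with it. *Irf1*, chosen after its values were seen, is an interferon-responsive transcription factor gene between *Il5* and the *Csf2* and *Il3* pair, and was higher in tolerized cells after Ag (0.35 ± 0.10, adjusted p = 0.00538) and lower after PI (−1.46 ± 0.10, adjusted p = 7.86e-11), the reverse of *Il2*. *Pdlim4*, in the same region, fell on Ag in naive cells (−5.06 ± 0.50, adjusted p = 4.63e-08).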
